A study of Mus musculus with 8 samples.

Results

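The microvillus genes described here are 10 listed mouse genes, matched by Ensembl identifier among the 45706 genes counted in crypts of the small intestine (SI) and the colon (COL). They are the cytoplasmic actins Actb and Actg1, the actin bundling genes Vil1, Espn and Pls1, the membrane linker gene Ezr, the motor genes Myo1a and Myo7b, and the protocadherin genes Cdhr2 and Cdhr5. The 8 libraries were made from total RNA of crypts freshly isolated by EDTA chelation from 4 wild-type C57BL/6N mice, with no transgene and no treatment named. The paper's crypt isolation, described for organoids, took the proximal small intestine and scraped off its villi. It used less EDTA there, and for a shorter time, than for the colon. If the sequenced crypts were isolated in this way, isolation and tissue cannot be told apart. Since every animal supplied 1 library of each tissue, SI1 and COL1 come from the same animal, as do the other equal numbers (number 4 is donor mouse 5). Mice 1 and 4 were female and mice 2 and 3 male, and the age of the animals is not given in the sources used here. The comparison asks whether Actb, often taken as a gene of constant level, changed with the microvillus genes between SI and COL crypts.

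A microvillus is a finger of plasma membrane around a core of parallel actin filaments, and the packed microvilli of enterocytes form the brush border. Villin, espin and plastin-1 tie the filaments into a bundle, ezrin and the motor myosin-1a hold the bundle to the membrane, and CDHR2 and CDHR5 link neighbouring microvilli at their tips in a complex that includes myosin-7b. Beta- and gamma-actin, the products of Actb and Actg1, are the 2 actins of epithelial cells, and they differ in few amino acids.

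The coding sequences of Actb and Actg1 are shown first because a read from one can match the other. In GENCODE vM21 both are 1128 bases long, and 1000 of these (88.7%) are identical. The first 60 coding bases, from the start codon on and printed 5′ to 3′ with the 9 bases that differ in capitals, read:

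Actb: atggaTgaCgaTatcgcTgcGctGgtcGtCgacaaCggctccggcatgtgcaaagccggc

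Actg1: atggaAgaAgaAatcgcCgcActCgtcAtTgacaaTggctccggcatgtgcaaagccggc

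The longest identical run was 62 bases, and 30 of the 1079 aligned stretches of 50 bases were the same in both genes, so most stretches of that length tell the genes apart. Among the 50-base stretches of the longest transcript, 14.2% for Actb and 56.7% for Actg1 also occurred, on either strand, in a transcript of another gene. Of the 266 shared stretches of Actb, 179 occurred in Lrrc58, 126 in Gm15725 and 30 in Actg1. For Actg1 the gene sharing the most stretches was the processed pseudogene Gm12715, which had at most 1027 counts in a library where Actg1 had up to 50514. The share was 0.193% for Ezr and 0 for the other 7 genes, so the Actg1 counts are the least certain of the 10.

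RefSeq start site windows (GRCm38.p6, 250 bases before to 50 bases after a start) were found for 8 of the 10 genes, Espn having 3 windows; Actb and Myo7b had no entry. They were searched on both strands for the CArG box, the site of serum response factor (SRF), a known regulator of actin genes. Only the windows of Vil1 and Actg1 held the box, which 1.63% of all 32851 windows hold. The 100 bases before the start of these genes are printed on the strand of the gene, 5′ to 3′, with the box in capitals, beside those of Pls1, which had the largest change of the 10 genes and holds no box:

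Vil1, chr1:74409284-74409383, plus strand: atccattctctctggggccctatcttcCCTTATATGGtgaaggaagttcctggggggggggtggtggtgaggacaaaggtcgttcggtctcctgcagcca

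Actg1, chr11:120348496-120348595, minus strand: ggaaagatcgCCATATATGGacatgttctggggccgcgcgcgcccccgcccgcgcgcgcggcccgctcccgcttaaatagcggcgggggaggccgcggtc

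Pls1, chr9:95845280-95845379, minus strand: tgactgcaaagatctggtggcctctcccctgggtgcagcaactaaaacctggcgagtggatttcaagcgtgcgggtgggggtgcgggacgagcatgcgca

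The box began 73 bases before the start of Vil1 and 90 bases before that of Actg1. An HNF4 core (CAAAGTCC, in 1.42% of all windows), a CDX core (CAATAAA, 4.6%), a GATA core (AGATAA, 11.2%), all on both strands, and a TATA box (TATAAA, on the strand of the gene, 8.32%) were found in none of the windows of the 8 genes. A match or its absence describes these letters only.

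Total counts ran from 15969428 to 32908060 per library. The share of mitochondrially encoded counts fell into a low range in SI1, SI4, COL3 and COL4 (4.83% to 7.35%) and a high range in SI2, SI3, COL1 and COL2 (22.7% to 50.8%). The labelled tissues were checked against marker lists. The 10 mature enterocyte markers summed to 40323 to 109721 CPM (a gene's count per 1000000 counts, on the TMM scale) in SI and to 262 to 1672 CPM in COL, with 9 of 10 higher in SI. The 5 colonocyte markers summed to 470 to 1194 CPM in SI and 4613 to 31876 CPM in COL, with 3 of 5 higher in COL and 1, Ceacam20, higher in SI. Within SI, library SI1 stood apart: 9 of the 10 mature enterocyte markers were highest there, its 4 stem cell markers summed to 12.3 CPM, the other SI libraries holding 188 to 290 CPM, and its 5 proliferation markers to 70.1 CPM against 237 to 440 CPM. COL libraries held 27.0 to 34.6 CPM of the stem cell markers and 292 to 537 CPM of the proliferation markers. The stem cell list had 1 of 4 genes called by edgeR's test, higher in SI, and the proliferation list 0 of 5 (1 at an unadjusted p under 0.05, 0 by limma-voom and 1 by DESeq2). Epithelial markers were high in every library (3805 to 12225 CPM, 1 of 5 called, higher in COL), and the 9 muscle and stroma markers were each under 10 CPM everywhere (sums of 3.62 to 20.0 CPM, with 1 of 7 tested called, higher in COL). Immune markers summed to 46.3 to 126 CPM in SI and 16.6 to 47.8 CPM in COL, with 3 of 6 tested higher in SI. None of the markers of these lists was at 0 in all libraries. In these bulk samples fewer cells of a type and less RNA per cell cannot be told apart, and the part of the mature enterocyte and colonocyte signal in the results that follow was not tested. With the mitochondrial share as a covariate in edgeR's fit, 9 of the 10 genes were called higher in SI. The share of all genes called in that fit is not given here, so this count has no background beside it.

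Of the 10 genes, 9 were higher in SI than in COL crypts, Actb among them, and Actg1 was the exception. The call is an adjusted p under 0.05 by edgeR's quasi-likelihood test of 4 SI against 4 COL libraries, with Benjamini-Hochberg adjustment over the 14491 genes tested, and all 10 genes passed the filter on low counts. Of all genes tested, 15.5% passed in the direction of SI and 12.9% in that of COL. The 8 microvillus genes other than the actins were all higher in SI, with a median log2 fold change of 2.82 (range 2.04 to 4.11), beside −0.09 over all genes. None of the 10 was called higher in COL, and none was lower in SI at an unadjusted p under 0.05 by edgeR or was called so by limma-voom or DESeq2. For 9 of 10 genes every SI library lay above every COL library, which held for 17.8% of all genes, and the same 9 were higher in SI in 4 of 4 mice. With any 1 of the 8 libraries left out, SI1 included, 9 genes passed. The share of all genes called in those fits is not given here, so this count has no background beside it. An edgeR fit that blocks on the donor mouse called 8 (15.3% of all genes being higher in SI), with Actb the one lost. With scaling by library size alone 7 were called (7.69% of all genes), with Actb and Cdhr5 lost. That scaling lowered the median over all genes from −0.09 to −0.82.

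**Figure D1:**
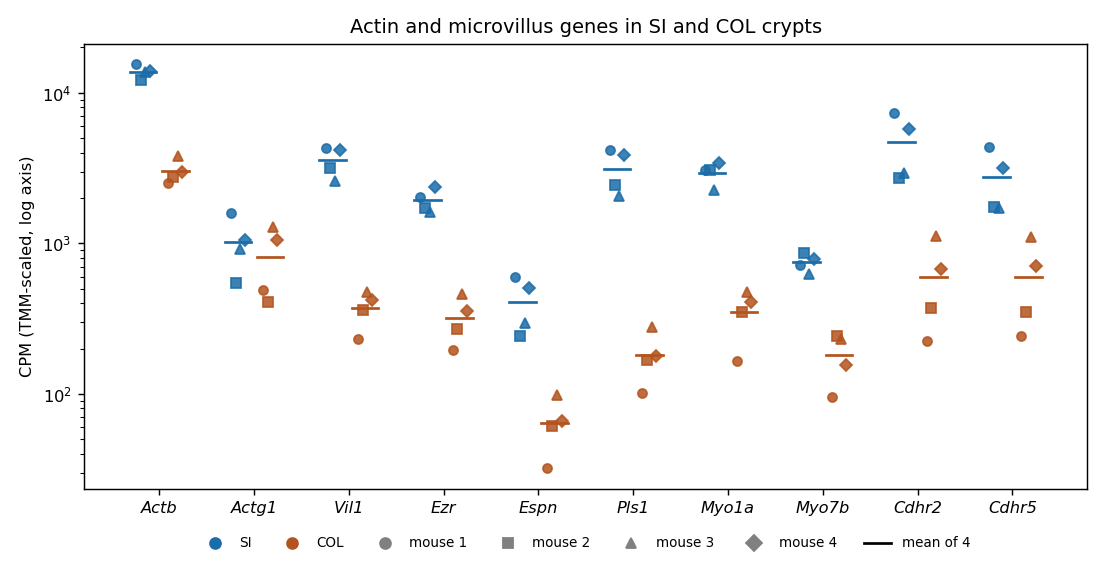
Expression of the 10 genes in each library, in TMM-scaled CPM on a log axis, with SI in blue, COL in orange, a symbol for each mouse and a bar at the mean of the 4 libraries. The SI and COL points are apart for all genes but Actg1, and the Actb points lie closest together within a tissue.

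Actb (ENSMUSG00000029580, chromosome 5, 142903115 to 142906754, GRCm38), which encodes beta-actin, was among the most abundant transcripts of both tissues. It was measured at 15483, 12133, 13734 and 13955 CPM in SI1 to SI4 and at 2513, 2774, 3792 and 2984 CPM in COL1 to COL4. The lowest SI library lay 3.20-fold above the highest COL library. The log2 fold change was 2.20 (SE 0.55), a 4.58-fold difference, with edgeR's adjusted p = 0.0110. In edgeR's fits that call was lost with the donor mouse as a block (2.21, edgeR's adjusted p = 0.0542) and with library size scaling (1.45, edgeR's adjusted p = 0.0634). With limma-voom and the same block Actb was called (2.21, limma-voom's adjusted p = 0.00618). The gene was higher in SI in 4 of 4 mice. Relative to the median of all genes, the value with library size scaling was 2.27. As a share of all counts that are not mitochondrial, Actb took 1.18% to 1.42% in SI and 0.455% to 0.568% in COL, so that the groups were also apart on a measure without TMM. Actb ranked between 6 and 12 among all genes by CPM in the SI libraries and between 15 and 18 in the COL libraries.

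Actg1 (ENSMUSG00000062825, chromosome 11, 120345690 to 120348542), which encodes gamma-actin, was measured at 1586, 549, 919 and 1060 CPM in SI1 to SI4 and at 491, 405, 1282 and 1058 CPM in COL1 to COL4. The groups overlapped, with SI2 below COL3 and COL4 and only SI1 above COL3. The log2 fold change was 0.35 (SE 0.49, edgeR's adjusted p = 0.643), and with library size scaling it was −0.45 (edgeR's adjusted p = 0.502), which was 0.37 relative to the median of all genes. The differences within mice were 1.69, 0.44, −0.48 and 0.0025 on the log2 scale in mice 1 to 4. Neither a difference nor equality of Actg1 can be read from these values.

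The ratio of the 2 actins does not depend on the scaling between libraries. Per kilobase of exon, Actb exceeded Actg1 by 9.69, 21.9, 14.8 and 13.1 times in SI1 to SI4 and by 5.08, 6.79, 2.93 and 2.80 times in COL1 to COL4. Every SI ratio lay above every COL ratio. Of the sequence stretches compared above, 56.7% for Actg1 and 14.2% for Actb also occurred in other genes. The size of these ratios is therefore uncertain. SI libraries had a log2 ratio of 3.83 ± 0.49 and COL libraries one of 2.04 ± 0.62 (SD, n = 4), a difference of 1.80 (exact permutation test, two-sided, p = 0.0286, also 0.0286 after adjustment over 2 ratios), the smallest p that the 70 assignments can give. The difference was 1.62 among the libraries in the high mitochondrial range and 1.97 among those in the low range. The ratio was higher in SI in 4 of 4 mice, for which an exact sign-flip test gives p = 0.125, the smallest that 4 pairs can give.

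Among the bundling genes, Vil1 (ENSMUSG00000026175, chromosome 1, 74409376 to 74435559) encodes villin, which both bundles and severs actin filaments. Its level was 4311, 3171, 2580 and 4147 CPM in SI1 to SI4 and 231, 359, 477 and 423 CPM in COL1 to COL4. The lowest SI library was 5.41-fold above the highest COL library. Vil1 was 9.53-fold higher in SI (log2 fold change 3.25, SE 0.47, edgeR's adjusted p = 0.00038). Pls1 (ENSMUSG00000049493, chromosome 9, 95752642 to 95845311), the gene of plastin-1 (fimbrin), showed 4180, 2438, 2056 and 3855 CPM in SI1 to SI4 and 102, 168, 276 and 179 CPM in COL1 to COL4. It had both the largest change of the 10 genes, 17.3-fold (log2 fold change 4.11, SE 0.52, edgeR's adjusted p = 0.000158), and the widest gap between the groups, 7.44-fold. Espn (ENSMUSG00000028943, chromosome 4, 152120331 to 152152371), which encodes the bundling protein espin, was the least abundant of the 10 per kilobase of annotated exon. Its values were 594, 241, 294 and 507 CPM in SI1 to SI4 and 32.0, 61.5, 98.5 and 66.2 CPM in COL1 to COL4, with no overlap. Espn was 6.34-fold higher in SI (log2 fold change 2.66, SE 0.44, edgeR's adjusted p = 0.000972).

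Ezr (ENSMUSG00000052397, chromosome 17, 6738041 to 6782784) encodes ezrin, which links filaments to the membrane. It stood at 2037, 1721, 1622 and 2368 CPM in SI1 to SI4 and at 195, 271, 463 and 356 CPM in COL1 to COL4. The groups did not overlap, and Ezr was 6.03-fold higher in SI (log2 fold change 2.59, SE 0.42, edgeR's adjusted p = 0.000892). Myo1a (ENSMUSG00000025401, chromosome 10, 127705170 to 127720940), the gene of brush border myosin I, was measured at 3065, 3060, 2245 and 3407 CPM in SI1 to SI4 and at 165, 350, 473 and 407 CPM in COL1 to COL4. It was 8.43-fold higher in SI with no overlap (log2 fold change 3.08, SE 0.48, edgeR's adjusted p = 0.000628). Myo7b (ENSMUSG00000024388, chromosome 18, 31959234 to 32036961), which encodes the myosin of the tip complex, showed 715, 864, 626 and 792 CPM in SI1 to SI4 and 96.0, 244, 230 and 156 CPM in COL1 to COL4. Its change, 4.13-fold, was the smallest of the 8 microvillus genes and was also called with no overlap (log2 fold change 2.04, SE 0.38, edgeR's adjusted p = 0.0021).

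Among the 8 microvillus genes, the protocadherin genes varied most between libraries of 1 tissue. Cdhr2 (ENSMUSG00000034918, chromosome 13, 54701461 to 54736662) was measured at 7353, 2730, 2939 and 5737 CPM in SI1 to SI4 and at 226, 371, 1127 and 678 CPM in COL1 to COL4. Cdhr5 (ENSMUSG00000025497, chromosome 7, 141269083 to 141276786) was measured at 4351, 1755, 1714 and 3162 CPM in SI1 to SI4 and at 242, 353, 1097 and 702 CPM in COL1 to COL4. In both genes SI1 and SI4 were high among the SI libraries and COL3 was the highest COL library, coming within 2.42-fold of the lowest SI library for Cdhr2 and within 1.56-fold for Cdhr5. Cdhr2 was 7.81-fold higher in SI (log2 fold change 2.97, SE 0.64, edgeR's adjusted p = 0.00514). Cdhr5 was 4.59-fold higher (log2 fold change 2.20, SE 0.59, edgeR's adjusted p = 0.0157), a call that was lost with library size scaling (1.42, edgeR's adjusted p = 0.0749).

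Set in order by mean CPM per kilobase of exon, Actb led both tissues, at 5161 ± 512 in SI and 1126 ± 206 in COL (SD, n = 4). In SI it was followed by Cdhr2 (1136 ± 543), Cdhr5 (1002 ± 462), Vil1 (1000 ± 231), Pls1 (805 ± 268), Myo1a (793 ± 133), Ezr (589 ± 103), Actg1 (387 ± 162), Myo7b (113 ± 15.4) and Espn (49.5 ± 20.4). From Cdhr2 down to Actg1 the libraries of each neighbouring pair overlapped, while Actb and Cdhr2, Actg1 and Myo7b, and Myo7b and Espn did not. In COL the gene after Actb was Actg1 (304 ± 161), ahead of Cdhr5 (218 ± 141), Cdhr2 (145 ± 96.5), Vil1 (105 ± 29.9), Ezr (97.6 ± 35.0), Myo1a (94.0 ± 35.6), Pls1 (46.6 ± 18.5), Myo7b (27.4 ± 10.4) and Espn (7.80 ± 3.29). There only Actb and Actg1, and Myo7b and Espn, were neighbours without overlap. By these means Actg1 stood below 6 of the microvillus genes in SI and above all 8 of them in COL. Of the 50-base stretches of Actg1, 56.7% also occur in other genes, so its place in these orders is the least certain. The length used for Espn, 8272 bases of joined annotated exons, exceeds its longest transcript of 4618 bases. The separation of Espn from Myo7b depends on that length.

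Actb changed in the direction of the microvillus genes, and by less than most of them. Of the 8, 6 had a log2 fold change above that of Actb under both scalings, Cdhr5 had nearly the same (2.20 for both genes, and 1.42 beside 1.45 with library size scaling), and Myo7b had a smaller one. The ratio of Actb to Vil1, per kilobase, was 4.76, 5.07, 7.06 and 4.46 in SI1 to SI4 and 14.4, 10.2, 10.5 and 9.34 in COL1 to COL4. All SI ratios were below all COL ratios. This gave a log2 ratio of 2.39 ± 0.29 for SI and 3.46 ± 0.27 for COL (SD, n = 4), a difference of −1.06 (exact permutation test, two-sided, p = 0.0286, also 0.0286 after adjustment over 2 ratios, the smallest possible), and it was −1.02 in the high and −1.11 in the low mitochondrial range. The ratio was lower in SI in 4 of 4 mice (exact sign-flip test p = 0.125, the smallest possible). The ratios to the other genes were not tested. Those to Pls1 (5.26 to 9.70 in SI, 19.9 to 35.9 in COL) and to Myo1a (5.50 to 8.48 and 10.2 to 21.1) were also apart. The ratio of Actb to Ezr (7.24 to 10.4 and 10.1 to 15.8), Espn, Myo7b, Cdhr2 and Cdhr5 overlapped between the tissues, with a mean log2 difference of 0.08 for Myo7b and −0.12 for Cdhr5.

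**Figure D2:**
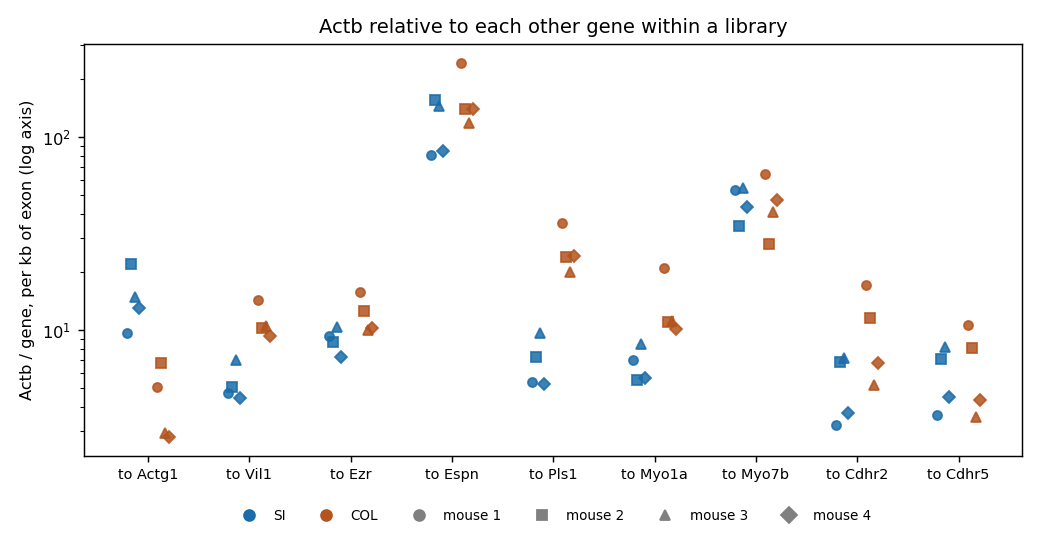
Ratio of Actb to each other gene within a library, per kilobase of exon, on a log axis, with SI in blue, COL in orange and a symbol for each mouse. The ratio to Actg1 lies higher in SI, the ratios to Vil1, Pls1 and Myo1a lie lower in SI, and the other 5 overlap.

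The size of the difference varied between mice. Within mice 1 to 4, log2 CPM of Actb was higher in SI by 2.62, 2.13, 1.86 and 2.23. For all 10 genes, Actg1 included, the difference was largest in mouse 1 and smallest in mouse 3, which held for 16.7% of all genes tested. The differences of the 8 microvillus genes ran from 0.64 (Cdhr5 in mouse 3) to 5.36 (Pls1 in mouse 1). Mouse 1 gave SI1, the library with the most mature enterocyte and the least stem cell marker signal, and mouse 3 gave COL3, the library with the most colonocyte marker signal. In mouse 1 the SI library was in the low mitochondrial range (4.84%) and the COL library in the high range (26.9%). Mouse 3 had the reverse, 22.7% in SI3 and 6.94% in COL3, and in mice 2 and 4 both libraries shared a range. The part of the marker signals or of the mitochondrial share in this order was not tested. Between the female (1 and 4) and male (2 and 3) mice the Actb difference was 2.42 and 1.99, and no gene of the 10 passed edgeR's test of the interaction of tissue and sex (lowest adjusted p = 0.909), which called 0 of all genes. Espn, the only one of the 10 with an unadjusted p under 0.05 (edgeR's unadjusted p = 0.0390, one of 761 such genes), differed by 3.57 in the female and 1.77 in the male mice. In SI the female libraries were those of low mitochondrial share and the male libraries those of high share. Sex and that share cannot be told apart there.

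**Figure D3:**
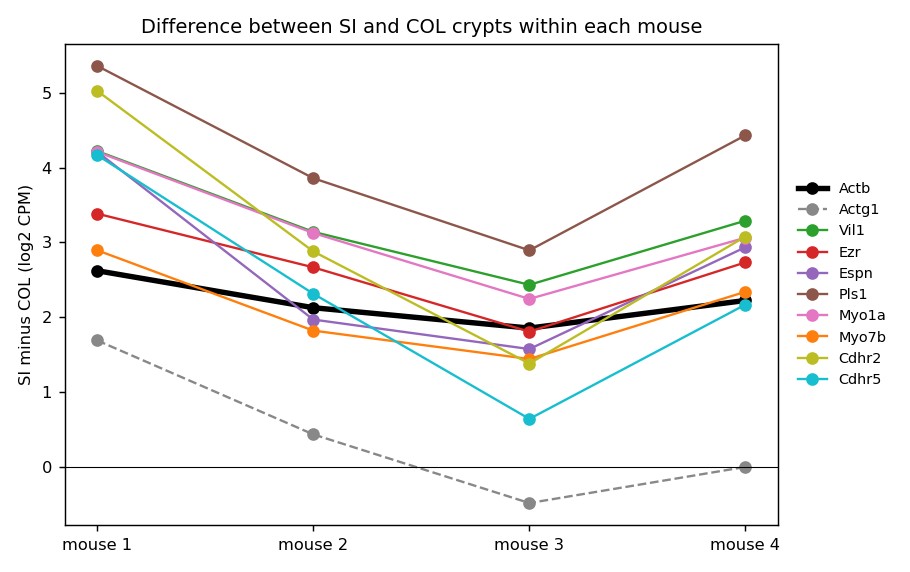
Difference between the SI and the COL library of each mouse in log2 CPM for the 10 genes, with Actb as the thick black line and Actg1 dashed. Lines join the values of a gene and imply no order of the mice. The values are largest in mouse 1 and smallest in mouse 3 for all 10 genes, and only Actg1 falls below 0.

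Within a tissue Actb moved little. Its highest library exceeded its lowest by 1.28-fold in SI and 1.51-fold in COL, against 1.38-fold to 2.69-fold and 2.07-fold to 4.99-fold for the 8 microvillus genes and 2.89-fold and 3.16-fold for Actg1. In SI, 5 of the 8 microvillus genes were highest in SI1, 2 in SI4 and 1, Myo7b, in SI2, while 6 were lowest in SI3 and 2 in SI2. Among the COL libraries, 7 of 8 were highest in COL3 and all 8 were lowest in COL1. Actb was likewise highest in SI1 and COL3 and lowest in SI2 and COL1. In both tissues the libraries of low mitochondrial share had the higher mean of all 8 microvillus genes and of Actb. On the log2 scale the microvillus genes were higher by 0.03 (Myo7b) to 1.20 (Cdhr2) in SI and by 0.31 (Myo7b) to 1.60 (Cdhr2) in COL. Actb was higher by 0.19 and 0.35. In SI the low range held the female and the high range the male mice, so range and sex cannot be told apart there. Since each tissue had 2 libraries of either range, the tissue difference could be taken within them: for Actb it was 2.29 in the high and 2.13 in the low range, and for the microvillus genes it lay between 1.99 (Myo7b, low) and 4.18 (Pls1, low) in either range.

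**Figure D4:**
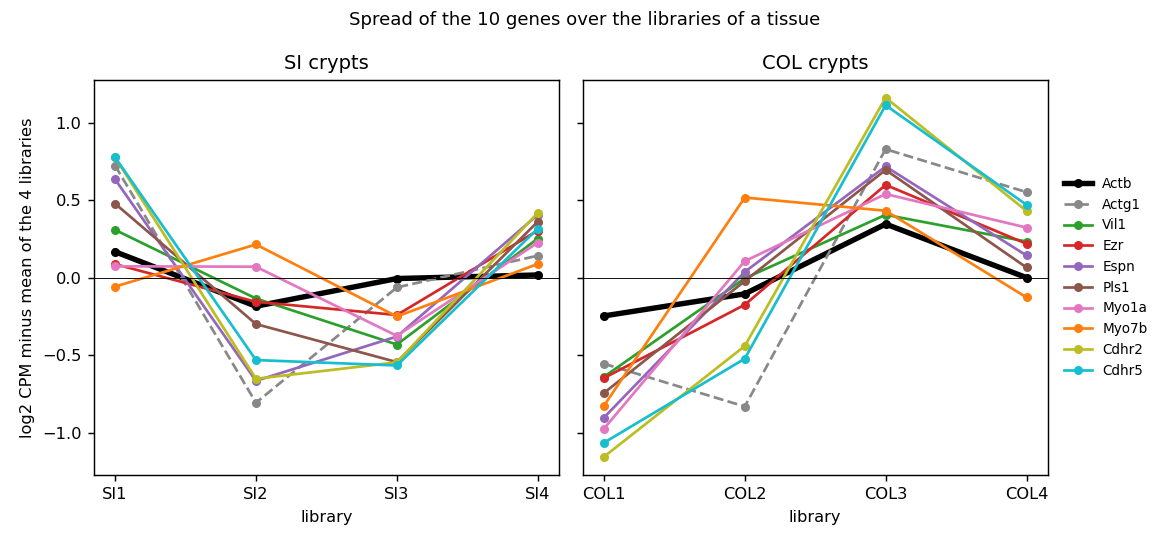
Log2 CPM of the 10 genes in each library minus the mean of the 4 libraries of the tissue, for SI (left) and COL (right), with Actb thick black and Actg1 dashed. Actb varies least between libraries, and in COL the protocadherin genes Cdhr2 and Cdhr5 spread most, with COL3 high and COL1 low.

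Genes with a pattern most like that of Actb were ranked by the root mean square difference of mean-centred log2 CPM over the 8 libraries, as a description. Among the 14490 other genes tested, the 5 nearest with a mean log2 CPM of at least 5 were Mia2 (0.14), Usp37 (0.15), Tmem19 (0.16), Chchd7 (0.17) and Zhx3 (0.17), and the same 5 were nearest with library size scaling. Of the 9 other genes described here, Ezr came closest (0.32, rank 91), followed by Myo7b (0.36, rank 161) and Espn (0.47, rank 467). Actg1 (1.02, rank 4089) and Pls1 (1.02, rank 4093) were farthest.

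The other genes of the microvillus were taken from 4 lists of 33 genes, of which 32 were tested. Of these, 11 were called for SI and 4 for COL, with a median log2 fold change of 0.64, so that 34.4% of those tested were higher in SI beside 15.5% of all genes and 12.5% higher in COL beside 12.9%. With library size scaling, in which 7.69% of all genes were higher in SI, the counts were 6 for SI and 9 for COL. That scaling moved the median of all genes to −0.82, toward COL. The share of all genes higher in COL in that fit is not given here, so the count of 9 has no background. Bundling and tip proteins gave 5 of 10 tested higher in SI by edgeR and 0 higher in COL. Those higher in SI included Cobl, an actin nucleator (log2 fold change 2.88, from 287.8 to 352 CPM in SI and 28.7 to 68.0 CPM in COL). Eps8 (2.10) and Eps8l2 (2.05), capping and bundling proteins of the filament tips, were also higher, as were Eps8l3 and Lcp1. The calls of Eps8l3 and Lcp1 were lost with library size scaling (edgeR's adjusted p = 0.0751 and 0.542). The Lcp1 libraries overlapped (17.9 to 29.7 CPM in SI and 7.71 to 18.9 CPM in COL). With 1 library left out its adjusted p by edgeR reached 0.0819. The villin-like gene Vill (0 to 3.14 CPM in SI and 3.93 to 10.6 CPM in COL) and the plastin gene Pls3 (0.272 to 6.59 and 7.40 to 18.9 CPM) had log2 fold changes of −2.89 and −1.68, and their SI and COL libraries did not overlap. They missed the threshold in edgeR's test (adjusted p = 0.0568 and 0.0916), and both passed it toward COL with limma-voom, DESeq2 and library size scaling, Vill also with the donor block (edgeR's adjusted p = 0.00999). The partners of the protocadherins were all higher in SI, Calml4 by 2.01, Anks4b by 1.42 and Ush1c, the scaffold harmonin, by 1.29. Of these 3 genes, the mean of Ush1c was 543 CPM in SI and 222 CPM in COL.

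Among membrane linkers 2 of 7 were higher in SI (28.6%, beside 15.5% of all genes) and 1 was higher in COL (14.3%, beside 12.9%). Pdzk1, a PDZ scaffold of brush border transporters, ranged from 310 to 721 CPM in SI and from 0 to 1.11 CPM in COL, and its log2 fold change of 10.25 depends on the prior count. Slc9a3r1, which encodes the ezrin-binding scaffold NHERF1, was higher in SI by 3.53 (SE 0.56, edgeR's adjusted p = 0.000739), and Slc9a3r2, its paralog, was higher in COL at under 11 CPM in every library. The ezrin paralogs Rdx and Msn were under 12 CPM everywhere and not called by edgeR or limma-voom, while DESeq2 called Msn higher in SI (DESeq2's adjusted p = 0.0204). Myosins and the terminal web, the filament mesh under the microvilli, gave 1 of 12 higher in SI, Myo5b (1.76), a motor of apical vesicle traffic, whose call was lost with the block (edgeR's adjusted p = 0.0515). COL was higher for 3, among them Myo1c (−0.83, also lost with the block, edgeR's adjusted p = 0.0501). The remaining actin genes, those of muscle, had 2 of 4 tested and 0 called by edgeR (0 also at an unadjusted p under 0.05, by limma-voom and by DESeq2), and Acta1 was the most abundant, at 1.33 to 38.5 CPM.

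**Figure D5:**
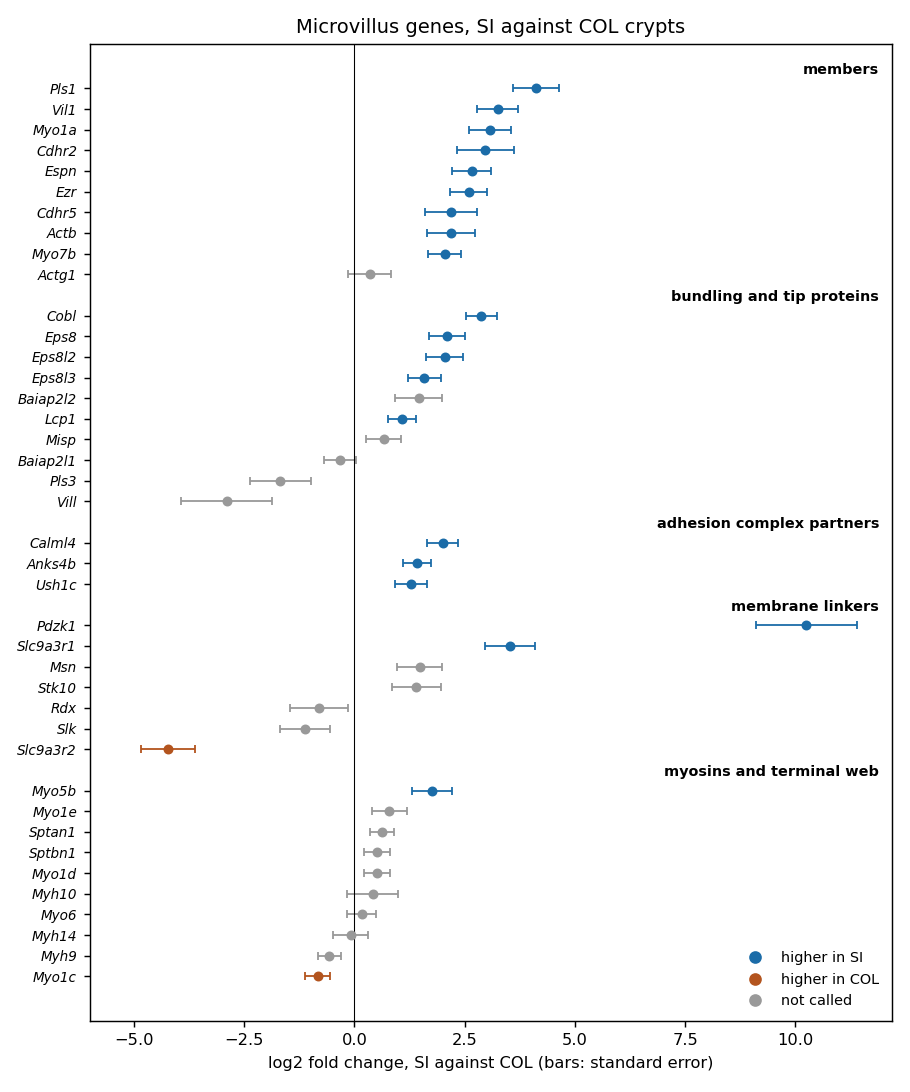
Log2 fold change of SI against COL by edgeR, with standard errors, for the 10 genes and for 30 of the 32 tested genes of the 4 microvillus lists. Blue marks genes called higher in SI, orange those called higher in COL and grey those not called, and the blue points include all bundling, linker, motor and protocadherin genes among the 10.

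Genes of actin turnover and cross-linking in any cell were set beside the actins. SI was higher for 9 of 33 (27.3%, beside 15.5% of all genes) and COL for 3 (9.09%, beside 12.9%), with a median log2 fold change of 0.73 beside −0.09 over all genes. Those higher in SI included Actn4, a cross-linker (1.83), Dstn, an actin depolymerizing factor (1.49, a call lost with the donor block, edgeR's adjusted p = 0.0657), and Cap1, a monomer-binding protein (1.27). Those higher in COL were Actn1 (−2.32), Tmsb10 (−1.56), a monomer-sequestering thymosin, and Flna, which was lost with the block (edgeR's adjusted p = 0.0626). The count higher in SI was 2 without SI1 or without SI4, 3 without COL1 and 1 with library size scaling, so it rests on single libraries and on the scaling. Among transcription factors of actin and enterocyte genes, 2 of 8 were higher in SI, Hnf4g (4.44, from 475 to 899 CPM in SI and 18.5 to 56.7 CPM in COL) and Gata4, and 1, Cdx1 (−2.09), was higher in COL. Srf (−0.39, SE 0.31, edgeR's adjusted p = 0.386) and its coactivators Mrtfa (−0.17) and Mrtfb (−0.41) were not called, nor were Hnf4a (0.29) and Cdx2 (−0.87).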

How the data were processed

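RNA-Seq of crypts was performed by the authors, who trimmed paired-end reads with Trimmomatic 0.36 and aligned and counted them with STAR 2.5.2b. The submitters' notes name the builds mm9 and mm10 and the paper mm10. The annotation release and the use of strand are not given in the sources used here. They deposited raw counts per Ensembl gene, 1 column per library, with no normalization.

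Symbols and coordinates came from GENCODE vM21 (GRCm38), which matched 45143 of 45706 identifiers. Counts were tested with edgeR 4.0.16 (R 4.3.3; quasi-likelihood, TMM, filterByExpr by tissue) without a block, since the methods name limma at an adjusted p of 0.05 and no such term. CPM are counts per 1000000 of the TMM-scaled sum of counts of the 14491 genes kept, and log2 CPM used a prior count of 2. Level comparisons divided CPM by the exon length, which is the joined length of all annotated exons of a gene. Standard errors came from the coefficient and the F statistic. The scripts were tested on simulated counts. The smallest count of any of the 10 genes was 989, so counting error is small beside the spread of libraries.

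SI and COL libraries are paired by donor mouse in the labels. Their deviations from the group means correlated at −0.24, 0.39, −0.08 and 0.33 in mice 1 to 4. The 10 genes, the lists and the rules were chosen with earlier results of these data known. Named were the 10 genes, all genes of the microvillus lists by list, up to 3 called genes per direction of a list with a mean log2 CPM reaching 3, and the 5 nearest to Actb. Genes called below that level, and Vill, Pls3, Rdx, Msn, Acta1 and the transcription factors not called, were named for completeness after their values were seen, and 2 genes of the myosin and terminal web list are not reported here one by one. Alternatives were library size scaling, DESeq2 1.42.0, limma 3.58.1 (voom), the donor block, other filters and a threshold of 1 on the log2 change. Others were the mitochondrial share as covariate and dropping each library in turn. A further alternative, with all libraries, took TMM factors and library sizes without the 10 genes and without the 18 genes that took over 1% of a library.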

Additional observations from a re-analysis of the deposited data

How the results depend on the processing

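Of the 10 genes, 9 were called higher in SI and 0 higher in COL with any 1 library left out, and the counts stayed within 1.5 times under every alternative. The share of all genes higher in SI is given above only for edgeR's main, donor block and library size fits, so the other counts have no background. The pairing by donor mouse, as a replicate block in edgeR's fit, gave Actb a log2 fold change of 2.21 that missed the threshold. It changed no other call among the 10 genes. With limma-voom and the same block Actb passed (2.21, limma-voom's adjusted p = 0.00618). In edgeR's fits Actb also missed the threshold with library size scaling (1.45), without a filter (2.15) and against a log2 change of 1 (2.20). It was 2.42 within female mice and ran from 2.12 to 2.33 with 1 library left out. Cdhr5 missed the threshold with library size scaling and against a log2 change of 1 too, which left 7 of the 10 genes called in either. Actg1 turned to −0.45 with library size scaling. The log2 ratios of Actb to Actg1 (1.80) and to Vil1 (−1.06) cannot pass 0.05 by the sign-flip test of the 4 pairs, nor with 3 libraries against 4, where they ran from 1.59 to 2.04 and from −1.21 to −0.93.

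Genes of the microvillus lists called higher in SI, 11 in the main test, numbered 6 with library size scaling and 6 against a log2 change of 1. Those higher in COL, 4 in the main test, numbered 9 with library size scaling, 7 with DESeq2, 2 with at least 10 counts in every library (which removes low genes) and 7 with the mitochondrial share as covariate. They ran from 10 to 14 and from 3 to 4 with 1 library left out. For actin turnover, 9 higher in SI became 1 with library size scaling, 3 without a filter, 16 with the mitochondrial covariate, 1 against a log2 change of 1 and 2 to 10 with 1 library left out. The 3 higher in COL became 5 with library size scaling, 5 with the covariate, 1 against a log2 change of 1 and 2 to 4 with 1 library left out. Apart from the shift that library size scaling gives all genes, the cause was not tested. Beyond the main test and the SI share with library size scaling, no share of all genes called stands beside these counts.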
